A study of Mus musculus with 4 samples.

Results

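The major urinary protein (Mup) genes were examined for peaks of the testis-specific linker histone H1t. The set held 10 genes, Mup1, Mup2, Mup3, Mup4, Mup5, Mup7, Mup9, Mup11, Mup15 and Mup20, of the 22 protein-coding Mup genes that GENCODE vM21 places in the cluster on mouse chromosome 4, which spans chr4:59956804-62150863 of GRCm38. The genes were chosen by the H1t peak list itself, and a peak belonged to a gene where it shared at least 1 bp with the gene body. Of the 48681 listed peaks, 8 met this rule, and they fell in 5 of the 10 genes. Mup2 held 3, Mup5 held 2, and Mup3, Mup4 and Mup20 held 1 each. Mup1, Mup7, Mup9, Mup11 and Mup15 held 0, so for these the peak list gave only neighbouring peaks. A further 79 peaks lay in the cluster outside the bodies of the 10 genes.

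Major urinary proteins are small secreted lipocalins, barrel-shaped carriers of hydrophobic molecules. In mice they are made mainly by the liver under the control of growth hormone and androgens, pass into the urine and release volatile pheromones slowly, and the protein of Mup20, darcin, is itself a pheromone. Mup4 and Mup5 are made mainly in secretory glands rather than the liver. Most of the cluster consists of near-identical coding genes, each paired with a pseudogene in a repeated unit. H1t is the linker histone variant of spermatocytes, and linker histones bind nucleosomes at the entry and exit of the DNA.

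Chromatin of testicular cells from C57BL6 mice at postnatal day 20 was immunoprecipitated with an antibody against H1t in 2 ChIP libraries, and 2 input libraries were made without an antibody. The labels name the cells as pachytene cells and also as testicular cells, the study describes day 20 testes as enriched in pachytene spermatocytes, and no expression was measured here, so the cell type could not be checked against markers. The authors pooled the libraries before calling peaks, with 39221290 ChIP fragments kept of 51192421 and 30377916 input fragments kept of 55300487. Every value below is therefore a value of the pooled libraries, with no replicate spread, no test and no error between mice.

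The sequences around the gene starts show how alike the copies are and where the peaks fell on them. Promoters of 7 of the 10 genes and of 14 of the 22 coding Mup genes were found in a RefSeq table of GRCm38, those of Mup1, Mup5 and Mup20 not. The stretches below end with the letters TATATAA in capitals, a TATA-box sequence, and carry the 100 bases before it, including the A-rich tract. In the genes shown, these letters lie just downstream of the gene start used here. For Mup2 on the minus strand, that start is at 60139897 and the stretch ends at 60139877. Whether they act as a TATA box was not tested.
Mup2 (chr4:60139877-60139983, minus strand, 16 of these bases under a peak): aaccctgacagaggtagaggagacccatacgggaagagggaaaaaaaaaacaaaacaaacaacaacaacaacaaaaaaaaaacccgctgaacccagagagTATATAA
Mup19 (chr4:61782249-61782355, minus strand, inside a peak): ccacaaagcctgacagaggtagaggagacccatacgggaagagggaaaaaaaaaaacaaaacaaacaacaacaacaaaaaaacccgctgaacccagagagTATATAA
Mup15 (chr4:61439723-61439829, minus strand, under no peak): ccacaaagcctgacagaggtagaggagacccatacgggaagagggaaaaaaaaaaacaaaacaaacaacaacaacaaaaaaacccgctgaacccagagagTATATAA
Mup4 (chr4:59960690-59960796, minus strand, under no peak): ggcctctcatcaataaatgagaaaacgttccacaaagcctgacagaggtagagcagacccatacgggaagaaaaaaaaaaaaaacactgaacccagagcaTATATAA
Mup3 (chr4:62087322-62087428, minus strand, under no peak): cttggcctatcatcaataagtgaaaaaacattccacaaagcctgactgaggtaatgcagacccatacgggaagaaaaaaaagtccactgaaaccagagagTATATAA
The Mup15 and Mup19 stretches are identical over all 107 bases. A peak was listed over that of Mup19 and none over that of Mup15. Within 1 kb of the start, 4.20% of the 100-base sequences at Mup15 and 22.5% at Mup19 occurred once in the genome. Fragments from such sequence cannot all be assigned to 1 gene, and the part of their placement in this difference was not tested. TATATAA, on either strand, was in 6 of the 7 promoters of the 10 genes and in 13 of all 14 Mup promoters, against 3.24% of the 32851 promoters of the table. A run of 8 or more A on either strand was in 6 of the 7 and in 12 of the 14, against 7.87% of all promoters. These matches describe the letters of the window only.

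The peaks of Mup3, Mup4 and Mup20 overlapped each other when placed on the gene, and the coding bases of exon 2 lay under all of them. Exon 2 of these genes is shown in capitals with 20 intron bases on either side, beside that of Mup1, which lay under no peak.
Mup3 (chr4:62086780-62086953, minus strand): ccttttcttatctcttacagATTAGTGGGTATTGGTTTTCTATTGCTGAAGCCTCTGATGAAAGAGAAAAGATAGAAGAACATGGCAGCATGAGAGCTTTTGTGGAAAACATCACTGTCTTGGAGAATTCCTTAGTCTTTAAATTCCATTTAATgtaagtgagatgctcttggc
Mup4 (chr4:59960019-59960192, minus strand): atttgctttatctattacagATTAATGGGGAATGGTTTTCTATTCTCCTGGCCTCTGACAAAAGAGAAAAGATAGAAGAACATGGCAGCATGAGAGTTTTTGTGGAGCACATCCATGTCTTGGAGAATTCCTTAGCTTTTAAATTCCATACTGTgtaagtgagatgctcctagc
Mup20 (chr4:62053460-62053633, minus strand): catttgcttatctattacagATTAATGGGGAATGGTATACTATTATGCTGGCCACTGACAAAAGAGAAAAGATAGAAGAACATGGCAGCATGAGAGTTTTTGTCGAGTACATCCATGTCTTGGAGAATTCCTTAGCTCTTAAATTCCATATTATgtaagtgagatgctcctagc
Mup1 (chr4:60501262-60501435, minus strand): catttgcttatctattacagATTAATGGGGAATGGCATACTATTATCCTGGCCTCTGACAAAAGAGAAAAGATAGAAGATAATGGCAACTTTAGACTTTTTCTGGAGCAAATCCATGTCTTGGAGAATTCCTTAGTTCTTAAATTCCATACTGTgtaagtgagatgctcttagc
Of the 134 exon bases, Mup4 and Mup20 differed at 10, Mup3 and Mup4 at 22 and Mup3 and Mup20 at 25. Mup1 differed from Mup4 at 14, from Mup20 at 16 and from Mup3 at 33. The exon of Mup1, without a peak, was thus closer to those of Mup4 and Mup20 than the exon of Mup3, which had a peak. In the principal transcripts, 12.0% of the 100-base sequences of Mup1 and 20.5% of Mup20 occurred once in the genome. This share was 94.3% for Mup3 and 100% for Mup4. The part of fragment placement in the missing peak of Mup1 was not tested. Peaks at the starts of Mup17 and Mup19 also spanned exon 2.

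The 8 peaks were weak and alike. Their fold of ChIP over the local background, as the authors' peak caller gave it, was 1.69 to 1.85. Their pileup, the number of overlapping ChIP fragments, was 9.07 to 10.4 fragments. For broad regions the caller gives fold, pileup, −log10 p and −log10 q as means over the region, not at its highest point. The unadjusted p of the caller, whose cutoff was 0.05, was 0.0121 to 0.0285 when taken from the mean −log10 p. It is not a p of the region as a whole. The column of −log10 q, meant as the p adjusted over the genome, held 0 for all 8, but the header of the deposited table says that q was not calculated, so what this column holds is uncertain. The median fold was 1.75 for these 8 peaks, 1.76 for the other 79 peaks of the cluster and 1.73 for all listed peaks, so the peaks over the genes lay in the middle of the list. These values follow from the choice of the genes by the peak list and are a description only.

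**Figure D1:**
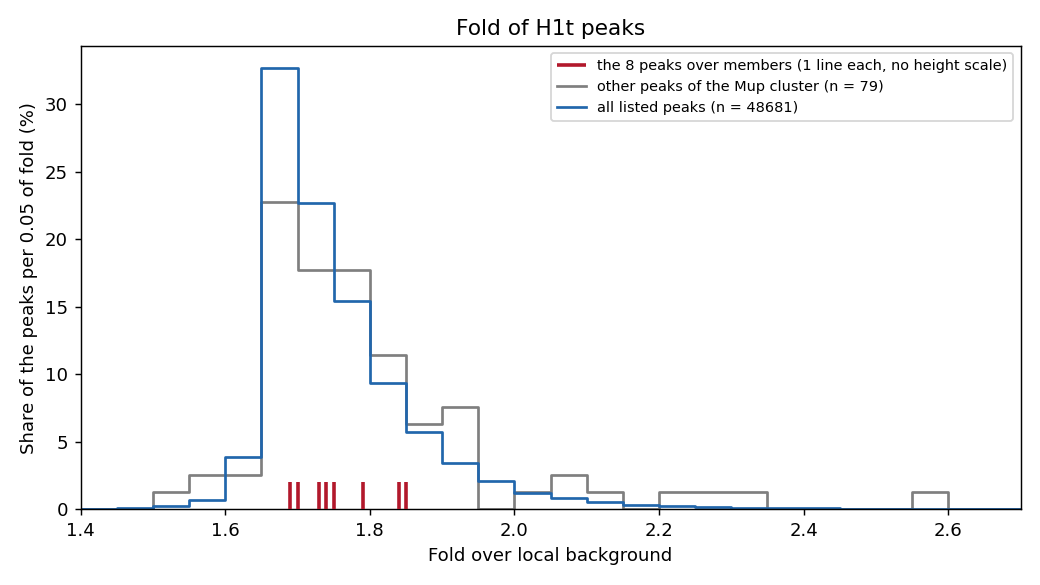
Fold over local background (x axis) against the share of peaks per 0.05 of fold (y axis, %), with the 8 peaks over the 10 Mup genes as red lines, the other 79 peaks of the Mup cluster in grey and all 48681 listed peaks in blue. The red lines lie between 1.69 and 1.85, where most listed peaks lie. The axis ends before the highest fold of the list, 28.4.

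Mup4, a gene of glands and nasal tissue, is the first gene of the cluster and lies on the minus strand at chr4:59956804-59960710. Its peak, chr4:59959490-59960254, spanned intron 1, exon 2 and intron 2, from 456 to 1220 bp downstream of the start, with a fold of 1.73 and a pileup of 9.31. A second peak lay upstream of the gene, 2050 bp from its body, with a fold of 1.74. Of the 100-base sequences that begin within 1 kb of the Mup4 start, 100% occurred at a single place in the genome, which is called unique here.

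Mup2, a gene of the near-identical group, was annotated at chr4:60135932-60154289, longer than the other members because of an additional transcript. Its principal transcript, on the minus strand, spans 3.97 kb and starts at 60139897. The first Mup2 peak, chr4:60134177-60136478, lay over the last exon and the bases beyond it, from 3419 to 5720 bp downstream of the start, with a fold of 1.85, a pileup of 9.99 and a width of 2302 bp. That width exceeded those of 98.4% of all listed peaks, and the fold was the highest of the 8. The second, chr4:60139968-60140667, lay 770 to 71 bp upstream of the start with a fold of 1.70 and a pileup of 9.15. The third, chr4:60141965-60142837, lay 2940 to 2068 bp upstream with a fold of 1.79 and a pileup of 9.65. The Mup2 peaks were thus at the gene end, at the start and upstream, and only the first overlapped the principal transcript. The middle of the gene-end peak, the peak with the highest fold of the 8, reads as follows on the plus strand.
Mup2 gene-end peak (chr4:60135267-60135386): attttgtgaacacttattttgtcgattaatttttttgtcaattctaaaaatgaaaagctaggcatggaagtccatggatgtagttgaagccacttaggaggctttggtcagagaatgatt

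Mup5, a gland-expressed gene on the minus strand at chr4:61831319-61835233, carried 2 peaks in its body and stood in a row of others. Its start peak, chr4:61834725-61836364, ran from 1131 bp upstream to 508 bp downstream, over exon 1 and part of intron 1, with a fold of 1.75 and a pileup of 9.45. Its second peak, chr4:61831893-61833058, ran from 2175 to 3340 bp downstream over exons 4 to 6, with a fold of 1.84 and a pileup of 10.4. Together they covered 42.8% of the gene body, the highest share of the 10 genes, which ran to 20.6% in the others. Within 10 kb of the Mup5 start 7 peaks were listed, which covered 49.2% of the bases. Of 21938 protein-coding genes, 5, Mup5 included, had at least 7 peaks within 10 kb of the start, and the other 4 were Abcg2, Chil4, Gm10553 and Zfp987. This count was made after the values of Mup5 had been seen.

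The row of peaks extended past Mup5 on both sides. Within 30 kb of its start 10 peaks covered 17831 bp or 29.7% of the bases, against 0% for Mup15 to 14.0% for Mup2 among the other 9 genes. The widest of these, 4966 bp, lay beyond the gene end with a fold of 1.77, and the peak 667 bp past the gene end had the highest fold of the row, 2.07. Of the 10 peaks, 7 had a raised local background, meaning over 2% above the genome-wide 4.95 fragments. This genome-wide value was the median local background of all listed peaks with a pileup of 9. The highest local background of the row was 9.76, for a peak of fold 1.52 at chr4:61811333-61812590. The input was thus raised in the same stretch as the ChIP, and its part in the peaks was not tested. In contrast to most of the cluster, 94.7% of the bases within 30 kb of the Mup5 start began a unique 100-base sequence.

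Mup20, the darcin gene, lies on the minus strand at chr4:62050234-62054158. Its peak, chr4:62053351-62054419, ran from 261 bp upstream to 807 bp downstream over exons 1 and 2, with a fold of 1.69 and a pileup of 9.07, both the lowest of the 8. The sequence under it recurred at 98.4% identity in a copy that lay partly in the pseudogene Mup-ps19 and partly beside it. No peak was listed over that copy, and 30.4% of the Mup20 peak was unique. Mup3, whose protein is made by the liver, lies the minus strand at chr4:62083476-62087342 and held 1 peak at chr4:62086442-62087234. It ran from 108 to 900 bp downstream of the start, over intron 1, exon 2 and parts of exon 1 and intron 2, with a fold of 1.74 and a pileup of 9.36. That peak was 96.7% unique. No further peak was listed between Mup20 and Mup3, 29.3 kb of mostly unique sequence.

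The 5 genes without a peak belong, like Mup2, to the near-identical group, which encodes urinary proteins made by the liver. Mup9 (chr4:60418046-60421952) came closest, with a peak of fold 1.71 at chr4:60416894-60417694, 352 bp past its gene end. Mup7 (chr4:60066469-60070475) had a peak of fold 1.68 at 1809 bp past its end. The nearest peaks to Mup1 (chr4:60498012-60501960) and Mup11 (chr4:60658466-60662411) lay 6034 and 8715 bp away. Mup15 (chr4:61435790-61439743) had none within 42276 bp. For the rule of 1 shared base, the smallest overlap inside was 509 bp for Mup5 and the smallest distance outside the 352 bp of Mup9.

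Peaks in the bodies of 5 of 10 genes compare with 35.1% of all 21938 protein-coding genes, and with 7.23% of the 1757 protein-coding genes of 3 to 5 kb, the length of most Mup genes. A peak within 1 kb of the start was listed for 5 of the 10 genes, for 3 of the other 12 coding Mup genes and for 2.88% of all protein-coding genes. A peak within 1 kb of the gene end was listed for 3 of the 10 genes, for 6 of all 22 coding Mup genes and for 4.91% of all protein-coding genes. Because the peak list chose the 10 genes, nothing is read from these differences for them.

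**Figure D2:**
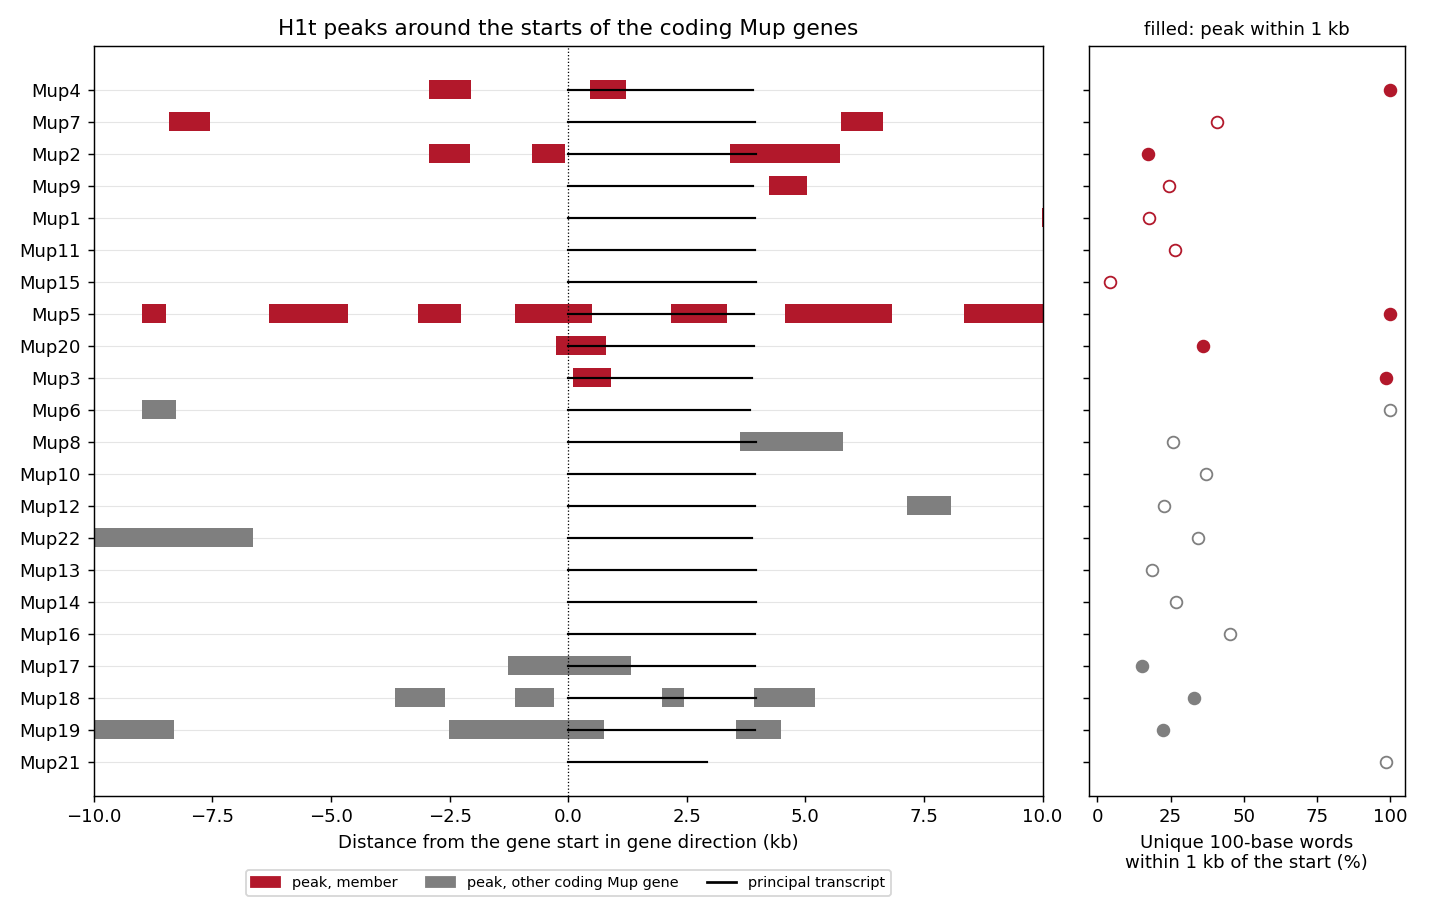
Left, listed H1t peaks (bars) by distance from the start of each coding Mup gene in gene direction (x axis, kb), with the 10 members in red above the 12 other coding Mup genes in grey and the principal transcript as a black line. Peaks recurred at the start, in 8 of 22 genes within 1 kb, and at the gene end, in 6 of 22. Right, the share of 100-base sequences within 1 kb of the start that occur once in the genome (x axis, %), filled where a peak lay within 1 kb.

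Among the other coding Mup genes, Mup6, Mup8, Mup17, Mup18 and Mup19 were overlapped. Mup8 had a gene-end peak of fold 1.95, and Mup18 and Mup19 had gene-end peaks of fold 2.02 and 1.85 at about the place of the Mup2 gene-end peak. Mup17 had a peak over its start with a fold of 1.87, and Mup19 a start peak of 3274 bp with a fold of 1.84. Mup18 held a further peak inside the gene, of fold 1.73. The peak of Mup6 lay only in a long model of that gene, over 8272 bp upstream of the principal start. Of 26 Mup pseudogenes, 4 were overlapped, Mup-ps1, Mup-ps15, Mup-ps16 and Mup-ps18, and the peak over Mup-ps16 was 4423 bp wide. Outside the Mup names, peaks overlapped the annotated genes Gm21286, Gm12573 and Gm13775.

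The gene end, the start and the stretch upstream of Mup2 each had many copies in the cluster, and peaks were listed over a few of these. Near-identical copies were taken as alignments of at least 95% identity over at least 80% of a peak, within the cluster. A copy counted as under a listed peak where it shared at least 1 bp with it. Copies were found for 4 of the 8 peaks, the 3 of Mup2 and that of Mup20, and for 67 of all 87 peaks of the cluster. The Mup2 gene-end peak had 13 copies, at 97.9% to 99.6% identity, of which 4 lay under a listed peak, at Mup8, Mup9, Mup18 and Mup19. The share of the copy covered was 91.3% at Mup8, 56.4% at Mup18, 41.3% at Mup19 and 34.8% at Mup9. The copy with the highest identity, 99.6% at Mup10, was not under a peak. The Mup2 start peak had 15 copies, of which 3 lay under a peak, wholly at Mup17 and Mup19 and over 65.0% at Mup18. The upstream Mup2 peak had 16 copies, of which 2 lay under a peak, near Mup18 and Mup19.

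**Figure D3:**
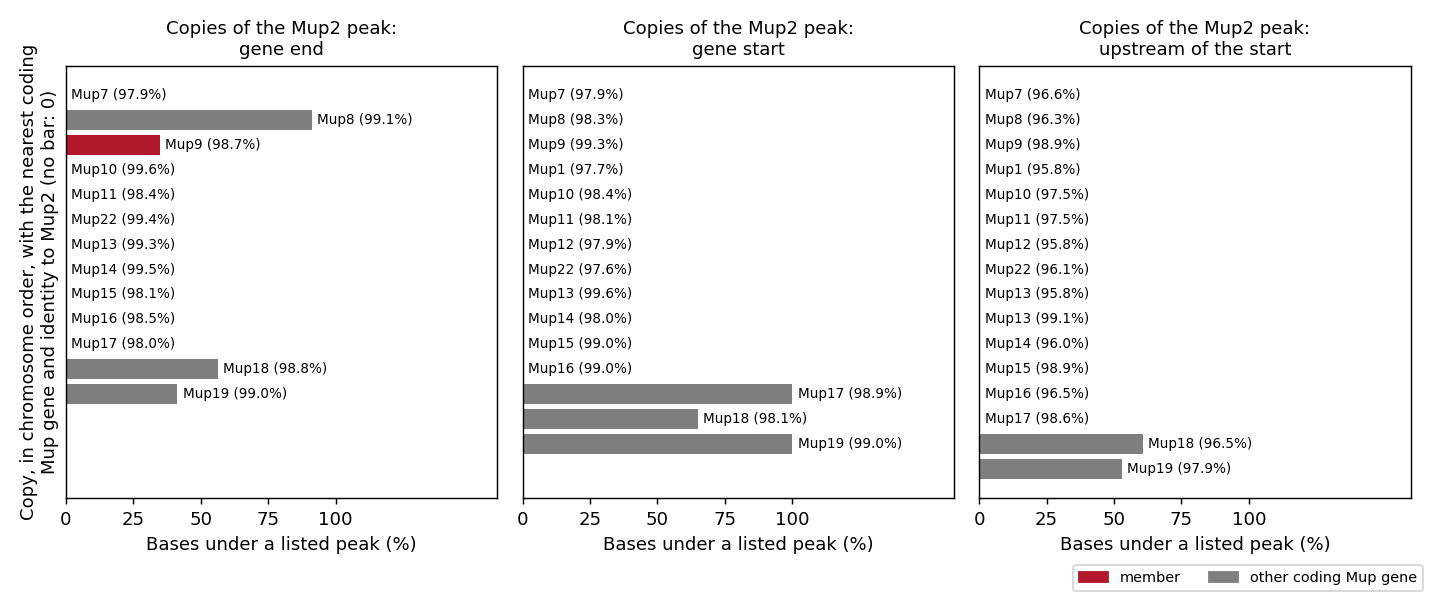
Copies of the 3 Mup2 peaks within the cluster, 1 row each in chromosome order, with the share of the copy under a listed peak (x axis, %), the nearest coding Mup gene and the identity to Mup2. Red bars mark members and grey bars other coding Mup genes, and a copy with no bar lay under no peak. Of 13, 15 and 16 copies, 4, 3 and 2 were under a peak, and these were at Mup8, Mup9, Mup17, Mup18 and Mup19.

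Over the 8 peaks together, 9 of 45 copies lay under a listed peak, and over all 87 peaks of the cluster 97 of 781 did, or 12.4%. The rule of 1 shared base also counted copies that were barely covered, such as 1 at Mup7 with 1.46% covered. The Bowtie2 settings that the study lists hold no option to report several positions, so 1 position was kept per fragment. No removal of fragments with several equally good positions is described. How such fragments were shared among the copies was not tested. In the principal transcripts of Mup2, Mup9 and Mup15, 15.8%, 19.3% and 24.2% of the 100-base sequences were unique. Most single 100-base sequences there thus cannot be assigned to 1 copy. Whether longer fragments could be assigned was not tested. Within 1 kb of the start, the share of unique 100-base sequences was 17.2% for Mup2, against 40.9% for Mup7, 26.5% for Mup11, 24.6% for Mup9, 17.8% for Mup1 and 4.20% for Mup15. It was 36.1% for Mup20, 98.7% for Mup3 and 100% for Mup4 and Mup5. Of the 5 coding Mup genes whose start was at least 90% unique, 3 had a peak there, Mup3, Mup4 and Mup5, and Mup6 and Mup21 had none. Of the 17 others, 5 had a peak at the start.

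By identity, the coding sequences and the 1 kb on either side of the starts divided the 10 genes alike. The starts of Mup3, Mup4, Mup5 and Mup20 were 89.0% to 90.3% identical to the closest other coding Mup start. For Mup1, Mup2, Mup7, Mup9, Mup11 and Mup15 this was 98.8% to 99.6%. The coding sequences of this last group were each 99.3% to 100% identical to that of another coding Mup gene, over coding lengths of 540 to 543 bp. Mup9 and Mup18 were identical throughout. The closest relatives were at 96.3% for Mup3, with Mup21, at 93.1% for Mup4 and Mup5, with each other, and at 91.7% for Mup20, with Mup5. Among the 10 genes, chosen by the peak list, all 4 of these and Mup2 held a peak. The other 12 coding Mup genes did not follow this division: Mup8, Mup17, Mup18 and Mup19, each at least 99.3% identical to another, held peaks, while Mup21 at 96.3% held 0 and Mup6 at 92.3% held 0 in its principal transcript. The part of fragment placement in these counts was not tested.

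What lay under the peaks was compared between the same sets, with no test. Repeat-masked bases made up 16.3% of the bases under the 8 peaks, against 44.9% under the 79 other peaks and 33.6% under all listed peaks. The 8 peaks overlapped genes by choice, whereas 62 of the 79 lay in no annotated gene. Peaks over the other coding genes Mup8, Mup17, Mup18 and Mup19 were each 5.66% to 19.7% repeat-masked, and that of Mup6 was 48.5%. Low masking was thus not particular to the 10 genes. A raised local background was found for 1 of the 8 peaks, that of Mup5 at 5.23 fragments, against 32 of the 79 and 21.9% of all. Under 50% of the peak was unique for 3 of the 8 peaks, for 44 of the 79 and for 8.79% of all. G and C made up 40.3%, 41.1% and 43.5% of the bases of these sets. CpG dinucleotides numbered 0.398 per 100 bp under the 8 peaks, 0.578 under the 79 and 0.852 under all.

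No peak over the 10 genes reached a fold of 2, against 8 of the 79 other peaks and 3.64% of all listed peaks. A p under 0.01, taken from the mean −log10 p, was reached by 0 of the 8, by 20 of the 79 and by 11.8% of all. By the uncertain q column, a q under 0.05 was reached by 0 of the 87 peaks of the cluster and by 0.255% of all. The peak of the cluster with the highest fold, 2.56 with a pileup of 14.3, lay at chr4:61625914-61626289 between Mup17 and Mup18, in no annotated gene. Its middle reads on the plus strand as follows, shown as the strongest site of the cluster.
Cluster peak (chr4:61626041-61626160): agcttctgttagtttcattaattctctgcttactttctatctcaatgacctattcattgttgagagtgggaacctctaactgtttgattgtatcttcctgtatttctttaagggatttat
It was 68.9% repeat-masked and 43.6% unique. The next folds were 2.32 at chr4:60603599-60603849 between Mup10 and Mup11, 2.30 at chr4:61759409-61759675 between Mup18 and Mup19 and 2.21 at chr4:60210274-60211508 near Mup8. All 4 lay between genes.

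The cluster as a whole held 87 peaks in 1.79 Mb of ungapped sequence, or 48.5 per Mb. The 1 Mb before it held 16.0 and the 1 Mb after it 29.0 per Mb, chromosome 4 held 20.8 and the autosomes 20.2. Density in the cluster was thus 2.40-fold that of the autosomes. The cluster was chosen by the same peak list, so this is a description only. Peaks covered 5.65% of the cluster, against 1.52% of the autosomes. Of its ungapped bases 39.5% began a unique 100-base sequence, 54.9% of those under peaks and 38.6% of those outside them, against 98.4% and 94.1% of the 1 Mb on either side.

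Peaks were spread unevenly between the 10 genes. The 392 kb between Mup15 and Mup5 held 29 of the 79 peaks, or 74.1 per Mb, and the 65.5 kb between Mup7 and Mup2 held 6, or 91.7 per Mb. Between Mup5 and Mup20 lay 12, at 55.8 per Mb, and between Mup9 and Mup1 4, at 52.6 per Mb. The intervals from Mup4 to Mup7 and from Mup2 to Mup9 held 5 and 8. Those from Mup1 to Mup11 and from Mup11 to Mup15 held 4 and 10, at 25.6 and 23.6 per Mb. A single peak lay beyond Mup3. Of the 79, 62 lay in no annotated gene, 7 in other coding Mup genes and 5 in Mup pseudogenes.

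The longest stretch without a peak, chr4:60839912-61482018, ran over 642 kb and held Mup13, Mup14 and Mup15. Of it 292 kb were sequence and the rest assembly gaps, and 20.7% of the sequence was unique. The next, chr4:60218967-60416893, ran over 198 kb between Mup8 and Mup9 with 148 kb of sequence, 25.8% unique. The genes beside the cluster were Slc46a2, a solute carrier gene 41.7 kb before it with 0 peaks, and the zinc finger gene Zfp37, 38.7 kb after it with 2 peaks of fold up to 1.75.

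**Figure D4:**
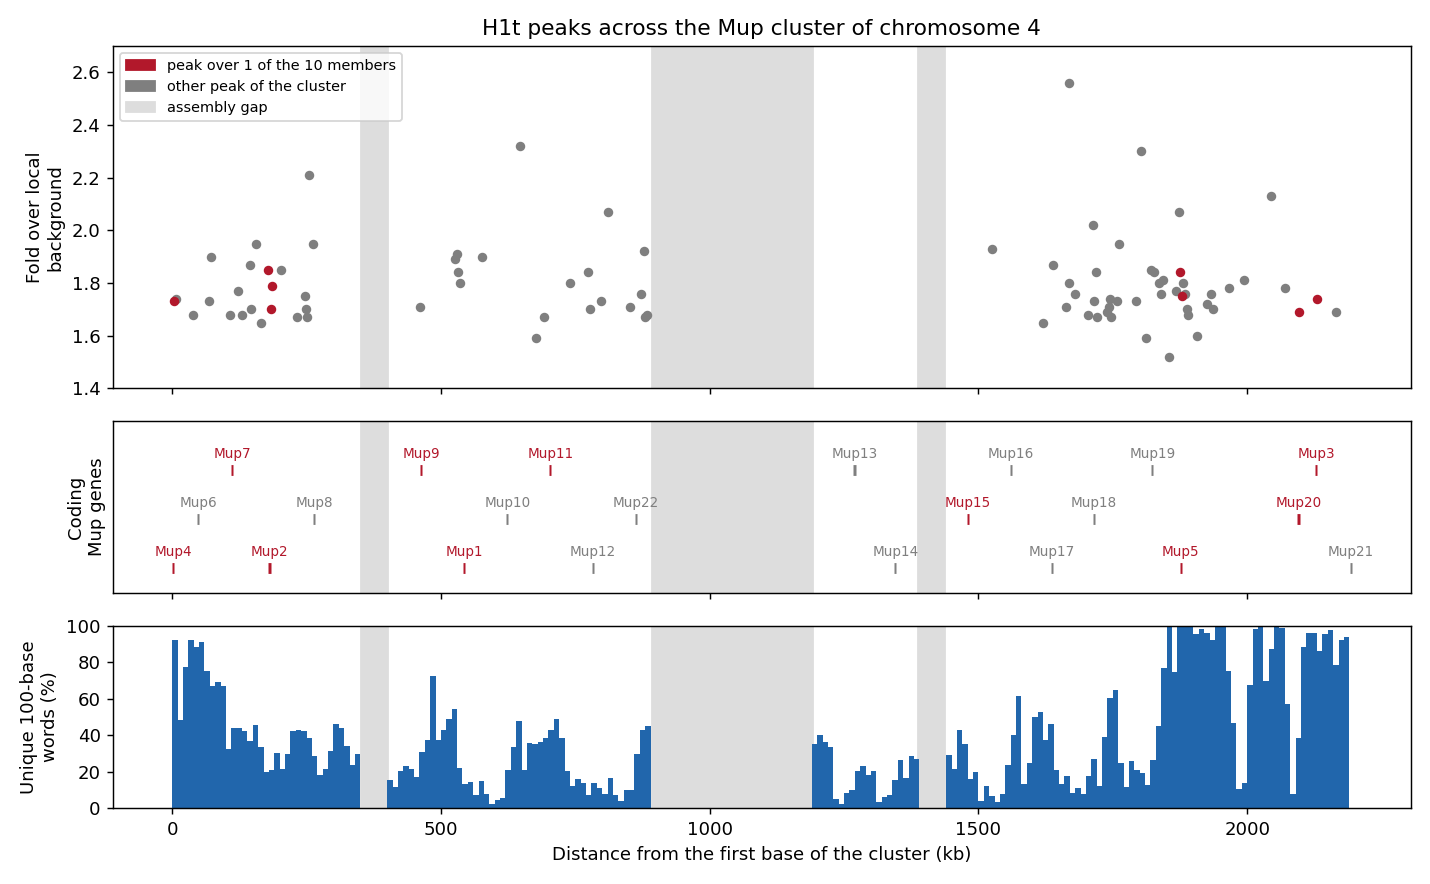
The Mup cluster by distance from its first base (x axis, kb). Top, fold of each of the 87 listed peaks, red for the 8 over the 10 members and grey for the other 79. Middle, the 22 coding Mup genes, members in red. Bottom, the share of 100-base sequences that occur once in the genome, per 10 kb (%). Pale bands are the 3 assembly gaps. Between Mup15 and Mup5 lay 29 of the 79 peaks, and none lay over or beside Mup13, Mup14 and Mup15.

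Related genes elsewhere were counted from fixed lists. Of 21 other lipocalin genes, 5 held a peak, the retinol carrier Rbp4, the lipid carrier Apod and the lipocalins Lcn3, Lcn8 and Lcn11, with folds of 1.74, 1.72, 1.68, 1.69 and 1.82. Lcn3 was the only 1 of the 21 with a peak within 1 kb of the start. Of 16 genes for regulators of Mup transcription in the liver, 7 held a peak, among them the growth hormone receptor gene Ghr with 2 peaks over 266 kb and a highest fold of 2.11. Hnf4a, a liver transcription factor gene, held 4 peaks over 66.1 kb with a highest fold of 2.04, and the signal transducer gene Stat5a held 1 of fold 1.86. All protein-coding genes stood at 35.1%, and those of 3 to 5 kb at 7.23%. Of the 21 lipocalin genes, 15 were 3 to 5 kb long, and 2 of these, Lcn8 and Lcn11, held a peak. The regulator genes ran to 266 kb in length.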

How the data were processed

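H1t ChIP and input chromatin were sequenced from testicular cells of mice at postnatal day 20 (2 libraries each). After a FastQC 0.11.5 check, the authors mapped read pairs to GRCm38.p5 (Bowtie2, local mode), and MACS2 2.1.2 called broad regions from the pooled ChIP over the pooled input at an unadjusted p of 0.05. The deposited table gives each peak's pileup, a signal in fragments, the −log10 of p and q, and the fold, a ratio to the local background, all from the authors' caller. For broad regions each of these is a mean over the region. Columns of values per sample left out numbered 0. Depth is known for the pooled libraries only.

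The local background B of a peak was solved from fold = (pileup + 1) / (B + 1). Because pileup and fold are means over the region, B is approximate. Peaks near the limit of 2% could thus fall on either side of it. Gene bodies were those of GENCODE vM21 and sequences those of GRCm38.p6, in which the main chromosomes keep their GRCm38.p5 coordinates. The start was the 5′ end of the longest principal transcript. Copies came from BLAST 2.17.0, and identities from alignments with Biopython 1.88. Unique sequences were counted on both strands of the primary chromosomes and of the unplaced and unlocalised scaffolds. Python 3.11.15, numpy 2.4.6, pandas 2.3.3, numba 0.67.0 and matplotlib 3.10.9 were used, and the counting was tested on simulated data. The genes and lists were chosen with earlier results of these data known. Named genes are the 10 members, every other Mup gene or annotated gene of the cluster under a peak and the nearest gene on each side. Alternatives were other thresholds, overlap rules, cluster limits, copy limits and gene models, the gene models chosen after seeing the data. No test was run.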

Additional observations from a re-analysis of the deposited data

How the results depend on the processing

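The thresholds moved the counts most. With a fold of at least 2, 0 peaks in 0 of the 10 genes were left, with 8 outside them, 4.46 per Mb and 1 other Mup gene or pseudogene. With a p under 0.01, these were 0, 0, 20, 11.1 per Mb and 4. With a q under 0.05, from the column that the header says was not calculated, all were 0. With 5 kb on either side of the gene bodies, 16 peaks overlapped the 10 genes and 15 other Mup genes and pseudogenes were overlapped, against 8 and 9. Merging peaks closer than 3 kb left 49 outside the genes and 30.7 per Mb, by construction. With a background over 10% or over 50% above the genome-wide value, 0 of the 8 peaks were raised, against 1. The repeat-masked share was 17.8% over peaks with the centre inside a gene, against 16.3%. RefSeq models, chosen after seeing the data, gave 12 peaks in 5 genes, 6 of them in a longer model of Mup5, and principal transcripts gave 6 in 5. The other alternatives stayed within 1.5 times. The pooled list gives no library to leave out. No paired analysis was possible because the libraries were pooled. At this depth the lowest listed mean pileup was 9 fragments, and weaker sites are not in the list. In near-identical genes, most single 100-base sequences cannot be assigned to 1 copy, and the placement of longer fragments was not tested.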
